A study of Mus musculus with 3 samples.

Results

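The genes described here are 10 that sense bacterial lipopolysaccharide (LPS) or hold back the signal it starts, out of 32285 genes counted. They were chosen by symbol, with earlier results of these data known. Tlr4, Ly96, Cd14 and Lbp encode the receptor and the proteins that bring LPS to it, Myd88 encodes the adaptor inside the cell, and Nfkbia, Tnfaip3, Zc3h12a, Irak3 and Socs3 encode feedback inhibitors. Single-cell RNA was counted with 10x droplet chemistry in intimal cells, those of the vessel's inner layer, taken at the aortic arch's lesser curvature from C57Bl/6J wildtype mice aged 12 to 13 weeks. Untreated mice gave 2 control libraries, and mice injected intravenously with 30 µg of ultrapure LPS 18 h before harvest gave 1 library. Every library pooled 5 to 10 mice of both sexes, so no value belongs to a single animal, and all tissue was perfused with and dissected in actinomycin D, a blocker of transcription. Nothing in the labels says how far the control libraries were separate experiments, so p-values measure only the spread between these samples, which may be technical.

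LPS in blood is bound by LBP, handed to CD14 and then loaded onto MD-2, the product of Ly96, which sits on TLR4. Binding brings TLR4 molecules together, recruits MyD88 and leads to the release of NF-kB from its inhibitor IkBa, the product of Nfkbia. Signalling also raises products that shut the pathway down: IkBa itself, the ubiquitin-editing enzyme A20 (Tnfaip3), the RNase Regnase-1 (Zc3h12a) and IRAK-M (Irak3), while SOCS3 blocks signalling from the IL-6 receptor to STAT3. In vessels, endothelial cells are among the first to meet LPS, and macrophages of the wall carry the same receptor.

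Stretches of DNA just before the start that hold a motif match are printed here for the inhibitors and the adaptor that rose in the tests below. They run 5′ to 3′ on the minus strand, come from RefSeq on GRCm38.p6 and leave out bases that GENCODE places in an exon. Capitals mark matches, on either strand, to the NF-kB consensus, to TTCNNNGAA (a STAT site) or to the interferon-stimulated response element.
Nfkbia, chr12:55492648-55492897: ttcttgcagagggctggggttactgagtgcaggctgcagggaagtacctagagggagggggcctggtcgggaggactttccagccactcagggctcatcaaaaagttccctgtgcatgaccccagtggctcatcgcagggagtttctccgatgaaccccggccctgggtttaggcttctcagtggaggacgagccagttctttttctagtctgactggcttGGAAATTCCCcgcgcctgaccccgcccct
Tnfaip3, chr10:19015411-19015547: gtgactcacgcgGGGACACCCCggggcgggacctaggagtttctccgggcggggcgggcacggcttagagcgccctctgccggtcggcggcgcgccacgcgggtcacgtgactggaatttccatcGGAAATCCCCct
Socs3, chr11:117969452-117969616: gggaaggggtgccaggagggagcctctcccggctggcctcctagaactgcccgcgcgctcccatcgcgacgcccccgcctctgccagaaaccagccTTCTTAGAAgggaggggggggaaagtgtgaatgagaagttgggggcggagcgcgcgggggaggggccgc
Myd88, chr9:119340042-119340268: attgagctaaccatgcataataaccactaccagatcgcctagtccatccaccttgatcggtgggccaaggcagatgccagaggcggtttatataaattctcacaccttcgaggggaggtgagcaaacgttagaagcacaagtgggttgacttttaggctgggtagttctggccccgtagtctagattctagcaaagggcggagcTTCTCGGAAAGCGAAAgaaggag

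Nfkbia held 1 NF-kB match, GGAAATTCCC, whose first base lies 29 bases before the start, and Tnfaip3 held 2, the nearer one (GGAAATCCCC) from 12 bases before the start. Among 32544 different promoters in the RefSeq table, 3.92% held at least 1 such match and 0.498% held 2 or more in the 250 bases before the start. Socs3 held 1 STAT match, TTCTTAGAA, 154 bases before its RefSeq start. The RefSeq starts of Socs3, Myd88 and Tnfaip3 lie inside the longer gene bodies that GENCODE gives, and so do their printed stretches. Myd88 held a STAT match (TTCTCGGAA) that runs into an interferon-stimulated match (GAAAGCGAAA), so its capitals are 1 run. In the 250 bases before the start a STAT match stood in 7.04% and an interferon-stimulated match in 2.98% of all promoters. The listed promoters of Zc3h12a (1 start) and Irak3 (2 starts) and the second start of Tnfaip3 held none of these letters. A match describes letters only and is no evidence that a factor binds there. Promoters of Tlr4, Ly96, Lbp and Cd14 are not shown.

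Gene bodies on GRCm38 in GENCODE mouse release M21 run from 66827584 to 66930284 on chromosome 4 for Tlr4 (ENSMUSG00000039005), from 16688051 to 16709611 on chromosome 1 for Ly96 and from 158306493 to 158332852 on chromosome 2 for Lbp. Myd88 (119335934 to 119341411 on chromosome 9) overlaps Slc22a14 on its own strand and Acaa1a on the other, and Irak3 (120141648 to 120202130 on chromosome 10) overlaps Tmbim4 on the other strand. The rule for reads in such overlaps was not given in the sources used here, so counts of Myd88 and Irak3 carry that uncertainty.

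The libraries differed in depth and quality. They held 1269, 4813 and 6000 barcodes and, in the same order (control replicate 1, control replicate 2, LPS), 4940996, 20069697 and 21864072 UMIs, the molecular tags that stand for captured RNA molecules. The ribosomal RNA-like transcript Gm42418 took 1.59% to 9.81% of UMIs in the controls and 28.6% with LPS, and 3744 LPS barcodes lay in near-empty clusters rich in it. After filtering, 1 barcode sequence was shared by 2 libraries. No cell annotation was used, so class names rest on marker lists and are likenesses, and control and LPS cells of a class lay mostly in different clusters. Tested were endothelial-like (45, 122 and 200 cells in control replicate 1, control replicate 2 and LPS), mononuclear phagocyte-like (81, 212 and 166), fibroblast-like (24, 76 and 106) and lymphoid-like cells, a class of T, NK and innate lymphoid markers (161, 1683 and 108). Each class carried its own markers: all 16 endothelial markers were detected in the endothelial-like cells of control replicate 2 and the LPS library (15 in control replicate 1), all 12 macrophage markers in the phagocyte-like sums and all 11 fibroblast markers in the fibroblast-like sums. The lymphoid-like cells were mostly thymocyte-like, and 21, 199 and 37 remained without clusters that carried the recombinase gene Rag1. Levels below are CPM, UMIs per 1000000 UMIs of the class in that library, with exact Poisson 95% intervals where given, which cover counting error only. A fold change is the log2 difference, LPS over control, ± SE fitted with edgeR's quasi-likelihood test, with p adjusted over all genes tested, and called means an adjusted p under 0.05. Counts of alternatives, the other ways of processing in the closing section, leave out any that gave the gene no adjusted p.

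**Figure D1:**
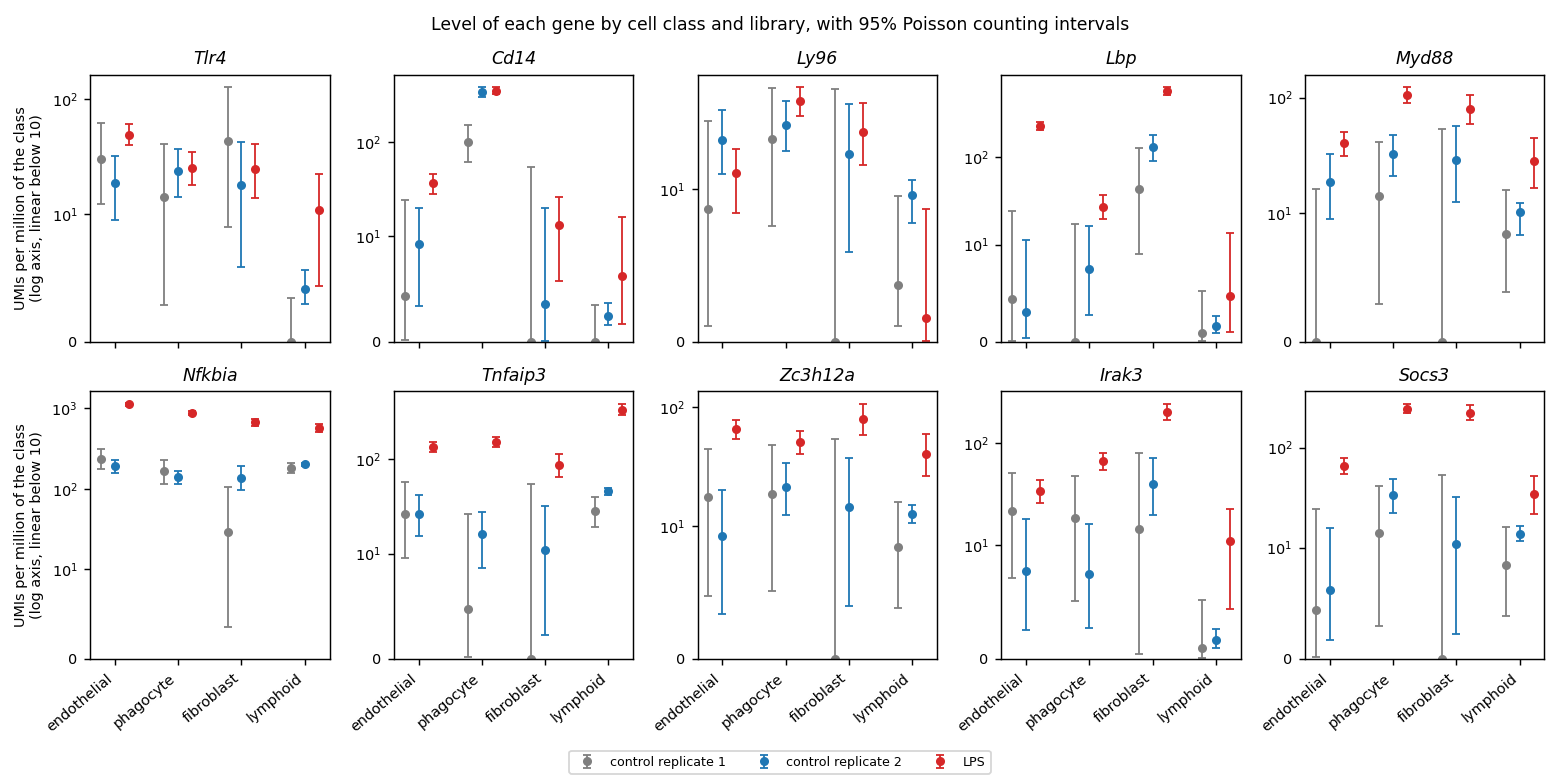
Level of each of the 10 genes in CPM of the class (log axis, linear below 10) in 4 cell classes. Points are libraries and bars are 95% Poisson counting intervals. For Nfkbia, Tnfaip3, Zc3h12a and Socs3 the LPS point lies above both controls in every class, whereas the Tlr4 and Ly96 points of the 3 libraries lie close together in phagocyte-like cells.

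The first question is whether the cells that line the vessel changed the means to sense LPS. In endothelial-like cells the soluble carrier and the co-receptor rose and the receptor itself did not pass. Lbp, the plasma protein that extracts LPS from bacterial membranes, had 1 and 2 UMIs in the controls and 412 with LPS, or 4.36, 3.09 and 226 CPM. The LPS library stood far above both controls, at 66.2 times their pooled level (22.5 to 322, 95% counting interval), and the fitted change was 6.15 ± 0.66 (adjusted p = 1.39e-09, 10 of 10 alternatives passed). In endothelial-like cells 1 alternative, with Gm42418-rich clusters put back, added no cell, so for every gene it repeated the main fit. All 6 LPS clusters of at least 20 endothelial-like cells carried Lbp, at 62.1 to 409 CPM, against 0 to 5.11 CPM in the 3 such control sums. The Lbp UMIs came from 90 of the 200 cells, and the cell with most held 9.71% of them. Free RNA was taken for each gene as its lowest mean UMIs per barcode over the cell groups of a library. If it was alike in all barcodes, it could account for 1.07% of the LPS Lbp UMIs, which was not tested.

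Cd14, the co-receptor that passes LPS from LBP to the receptor, stood at 4.36 and 9.26 CPM in the controls and 36.3 CPM with LPS (1, 6 and 66 UMIs). The LPS value was above both controls, and the fitted change was 2.37 ± 0.68 (adjusted p = 0.0154). This call did not pass in 5 of 9 alternatives, with adjusted p between 0.0129 and 0.394 over them. Cd14 is abundant in leukocytes, and the summed level of 12 macrophage markers in the same endothelial-like sums was 47.96, 224 and 146 CPM. The summed level of 10 neutrophil markers was 0, 3.09 and 27.5 CPM there, against 293259 CPM in neutrophil-like cells of the LPS library, where Cd14 itself was at 1508 CPM. The part of leukocyte RNA in the Cd14 change was not tested.

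Tlr4, the signalling receptor, gave 30.5, 18.5 and 49.5 CPM (7, 12 and 90 UMIs). The LPS value lay above both controls, but the fitted change of 1.30 ± 0.51 did not pass (adjusted p = 0.0956), nor did it in any of 10 alternatives. Without control replicate 2 the log2 difference was 0.79. Ly96, whose product MD-2 holds the lipid part of LPS, gave 8.72, 23.1 and 13.2 CPM, with the LPS value between the controls (-0.28 ± 0.82, adjusted p = 0.896), so that the sign turned with the control left out (-0.61 without control replicate 1 and 0.67 without control replicate 2). A receptor complex needs its parts in 1 cell, and among the 200 LPS endothelial-like cells 58 had a Tlr4 UMI, 20 a Ly96 UMI and 12 both, while 4 had Tlr4, Ly96 and Cd14 together. Among the 122 cells of control replicate 2 these counts were 11, 11, 2 and 0. The cells differed in depth, with a median of 4764 UMIs with LPS against 2156 and 2954.5 in the controls, so these counts are not comparable as they stand.

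Myd88, the adaptor that most Toll-like receptors and the IL-1 receptor share, had 0, 12 and 73 UMIs (0, 18.5 and 40.1 CPM). The fitted change was 1.82 ± 0.61 (adjusted p = 0.0440). It passed in 3 of 9 alternatives, and without control replicate 1 the log2 difference was 1.28; without control replicate 2 it was 6.39, against a control with no UMI, and is no measure of size.

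The feedback inhibitors rose together in endothelial-like cells, with Irak3 the exception. Nfkbia had 235, 190 and 1122 CPM, and the LPS library stood above both controls, which lay close to each other (2.56 ± 0.48, adjusted p = 1.37e-04). Tnfaip3 had the same level, 26.2 CPM, in both controls and 134 CPM with LPS (2.51 ± 0.48, adjusted p = 1.55e-04), although all 6 UMIs of control replicate 1 came from 1 cell. Zc3h12a had 17.4, 9.26 and 64.9 CPM (2.62 ± 0.55, adjusted p = 5.73e-04). Socs3 had 4.36, 6.17 and 65.96 CPM, with 1, 4 and 120 UMIs, and its change was the largest of the 5 inhibitors (3.68 ± 0.61, adjusted p = 1.35e-05). Irak3, a kinase-like brake on MyD88 complexes, gave 21.8, 7.72 and 34.1 CPM, above both controls without passing (1.64 ± 0.64, adjusted p = 0.0982; 0.73 without control replicate 2). Nfkbia passed in 10 of 10 alternatives, Socs3 in 9 of 9, Tnfaip3 in 9 of 10 and Zc3h12a in 8 of 10. DESeq2 gave Socs3 no adjusted p and is not among its 9. In each of the 6 LPS clusters Nfkbia was at 631 to 1428 CPM and Tnfaip3 at 88.7 to 178 CPM, above the 3 control sums (41.4 to 199 CPM and 0 to 16.7 CPM). Zc3h12a was apart too (41.8 to 90.4 CPM with LPS, 5.11 to 20.7 CPM in the control sums). Socs3 clusters overlapped the control sums (14.7 to 94.7 CPM with LPS, 0 to 20.7 CPM), as did those of Irak3 (7.60 to 73.2 CPM with LPS, 5.11 to 62.1 CPM). The near-empty LPS barcodes also held these genes, with Nfkbia at 520 and Tnfaip3 at 97.6 CPM. Zc3h12a was at 37.0, Socs3 at 54.1 and Irak3 at 36.6 CPM in them. The part of such RNA in the endothelial-like levels was not tested.

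Of the 10 genes, all 10 were tested in endothelial-like cells, 7 were higher with LPS, 0 were lower and 3 did not pass, where 5.69% of all 8613 genes tested were called higher, 5.24% lower and 10.9% in either direction. The median fitted change of the 10 was 2.44, against -0.0038 over all genes tested. Lbp, Cd14 and Socs3 reached the count minimum through the LPS library only, so they entered the test because they were high there. In simulated data for this comparison the test recovered 40% of 4-fold and 2% of 2-fold changes, so a gene such as Tlr4 that did not pass may still differ.

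**Figure D2:**
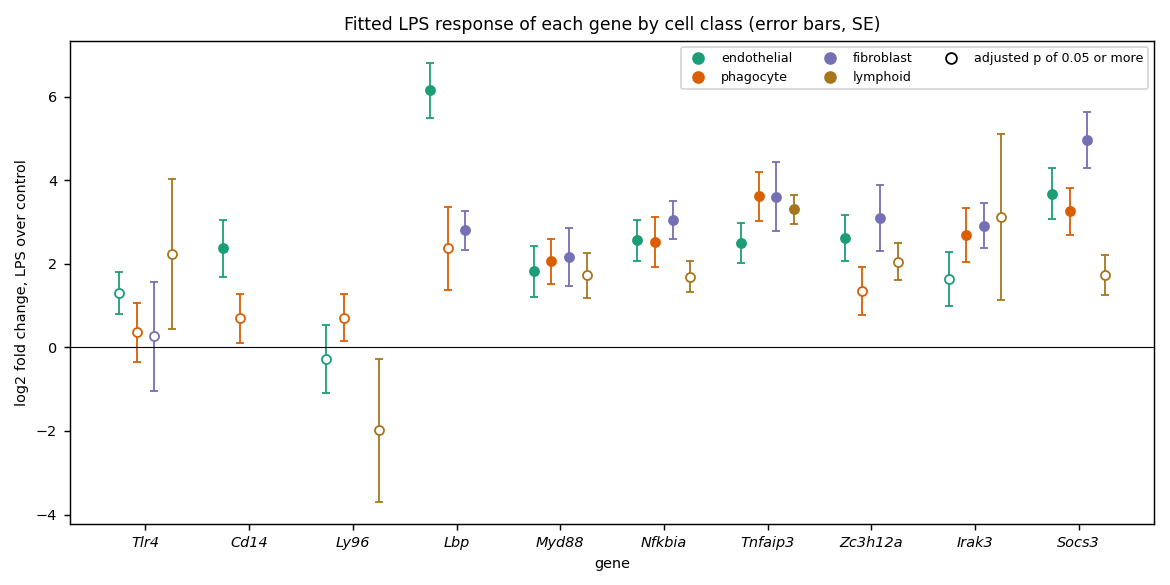
Fitted log2 fold change (LPS over control) of each gene in each class where it was tested, with bars of 1 SE. Filled points passed at an adjusted p under 0.05, and open points did not. The Lbp point of endothelial-like cells, at 6.15, lies above the Lbp points of phagocyte-like and fibroblast-like cells, and no filled point lies below 0.

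In mononuclear phagocyte-like cells, the class that carries the most Cd14 of those tested, none of the 4 genes of recognition passed the test, and 4 of the 5 inhibitors rose. In simulated data for this comparison the test recovered 18% of 4-fold and 2% of 2-fold changes, so the first does not show that those genes stayed level. Cd14 gave 98.4, 333 and 345.5 CPM, so that control replicate 2 and LPS lay together and control replicate 1 lay apart (0.70 ± 0.58, adjusted p = 0.703). Without control replicate 1 the log2 difference was 0.20, and without control replicate 2 it was 1.63. Tlr4 gave 14.1, 23.6 and 25.2 CPM (0.36 ± 0.71, adjusted p = 0.920) and Ly96 gave 23.4, 29.8 and 44.0 CPM (0.71 ± 0.57, adjusted p = 0.671). Lbp had 0, 6 and 42 UMIs (2.37 ± 1.00, adjusted p = 0.194; 5.59 without control replicate 2, against a control with no UMI), and a single cell held 38.1% of the LPS UMIs.

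Tnfaip3, which removes activating ubiquitin chains, rose from 4.69 and 16.2 CPM to 151 CPM (3.62 ± 0.59, adjusted p = 1.49e-05). Socs3 rose from 14.1 and 33.5 CPM to 246 CPM (3.25 ± 0.57, adjusted p = 6.04e-05). Nfkbia rose from 164 and 138 CPM to 879 CPM (2.53 ± 0.60, adjusted p = 0.00349). In these 3 genes the LPS value was several times the higher control. Irak3, known above all from monocytes and macrophages, rose from 18.7 and 7.45 CPM to 67.3 CPM (2.69 ± 0.64, adjusted p = 0.00371), and without control replicate 2 the difference was 1.64. Myd88 rose from 14.1 and 32.3 CPM to 105 CPM (2.06 ± 0.54, adjusted p = 0.00953). Zc3h12a, at 18.7, 21.1 and 50.5 CPM, was not called (1.35 ± 0.58, adjusted p = 0.2135).

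All 10 genes were tested in phagocyte-like cells, 5 were higher, 0 lower and 5 did not pass, where 3.41% of the 8918 genes tested were called higher, 2.48% lower and 5.89% in either direction. The median fitted change of the 10 was 2.22, against -0.04 over all genes tested, and Lbp alone reached the count minimum only through the LPS library. With free RNA subtracted, no gene of 7756 passed in this class, 5 of the genes described had an unadjusted p under 0.05, and the log2 differences of the 5 called genes were 1.81 to 3.49. DESeq2 called 2 of the 10.

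The make-up of this class differed between libraries. Monocyte-like cells numbered 7, 5 and 32 and dendritic-like cells 0, 0 and 7, and the summed level of 7 monocyte markers was 1350, 547 and 3609 CPM; that of 10 neutrophil markers was 18.7, 18.6 and 549 CPM, and that of 9 erythroid markers was 717, 332 and 5299 CPM. The 8 dendritic markers together stood at 178, 215 and 692 CPM and the 12 macrophage markers at 15461, 17812 and 7593 CPM. Their part in the changes was not tested. In macrophage-like cells alone (74, 207 and 127 cells), Tnfaip3 stood at 7.47, 14.7 and 167 CPM, Socs3 at 22.4, 24.02 and 232 CPM, Nfkbia at 127, 123 and 711 CPM and Irak3 at 0, 6.67 and 47.4 CPM. The LPS value of these 4 genes was thus above both controls in macrophage-like cells too, while Cd14 there was at 149, 340 and 436 CPM. For Irak3 this was uneven: the 2 LPS clusters of at least 20 cells stood at 11.3 to 41.8 CPM, against 0 to 11.3 CPM in 7 control sums. A single phagocyte-like cell held 17.3% of the LPS Irak3 UMIs of the class. The 7 LPS dendritic-like cells had Nfkbia at 1289 CPM and Tnfaip3 at 163 CPM. In the 32 LPS monocyte-like cells Irak3 was at 96.2 CPM and Socs3 at 283 CPM.

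Fibroblast-like cells, which make the matrix of the wall, carried Lbp before LPS. Lbp gave 43.7 and 130 CPM in the controls (3 and 36 UMIs) and 568 CPM with LPS (343 UMIs), above both (2.80 ± 0.46, adjusted p = 9.11e-08). This rise rests on 1 cluster of 32 LPS cells, which held 318 of the 343 UMIs, at 774 CPM. That cluster also held 410993 of the 603952 UMIs of the class, and 10.1% of its UMIs were Gm42418. The other 74 LPS fibroblast-like cells held 25 Lbp UMIs, or 130 CPM (83.8 to 191), beside 130 CPM in control replicate 2. Their clusters were shallower, with 32.3% and 37.5% Gm42418, so these levels are not like for like. That split was made after the values were seen. Socs3 had 0, 3 and 135 UMIs, 25.7 times higher than in the pooled controls (8.60 to 126, 95% counting interval; 4.97 ± 0.67, adjusted p = 1.80e-11). Tnfaip3 had 0, 3 and 52 UMIs, a ratio of 9.895 (3.20 to 49.5; 3.60 ± 0.83, adjusted p = 2.94e-04). For both genes the LPS count stood apart from controls that were at or near 0.

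Irak3 rose from 14.6 and 39.8 CPM to 204 CPM in fibroblast-like cells (2.92 ± 0.54, adjusted p = 2.40e-06). Nfkbia rose from 29.1 and 138 CPM to 674 CPM (3.05 ± 0.46, adjusted p = 3.89e-09), and without control replicate 2 the difference was 4.66. Zc3h12a had 0, 4 and 48 UMIs (3.099 ± 0.79, adjusted p = 0.00159) and Myd88 had 0, 8 and 48 (2.16 ± 0.70, adjusted p = 0.0192). In all of these the LPS value lay above both controls. Without control replicate 2 the log2 differences of Tnfaip3, Zc3h12a and Myd88 were 5.90, 5.79 and 5.79. They stand against a control with no UMI and are no measure of size. Tlr4, with 3, 5 and 15 UMIs, did not pass (0.27 ± 1.30, adjusted p = 0.936), and its sign turned without control replicate 2 (-0.58). Cd14 (0, 1 and 8 UMIs) and Ly96 (0, 5 and 16) were under the count minimum and were not tested.

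Of the 10 genes, 8 were tested in fibroblast-like cells, 7 were higher, 0 lower and 1 did not pass, where 7.89% of 5440 genes tested were called higher, 5.11% lower and 13.0% in either direction. Their median fitted change was 2.98, against 0.04 over all genes tested, and 4 of the 8 reached the count minimum only through the LPS library. Without the low-count filter no gene of 13634 passed in this class, and 6 of the genes described had an unadjusted p under 0.05. With free RNA subtracted 4 of the genes described were called, and DESeq2 called 3. In these sums 9 erythroid markers together stood at 597, 348 and 6302 CPM, 7 monocyte markers at 160, 362 and 1177 CPM, 10 neutrophil markers at 0, 0 and 51.3 CPM and the 11 fibroblast markers at 35266, 33261 and 17086 CPM. The part of these shifts in the changes was not tested.

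In the lymphoid-like cells, receptor genes had few UMIs with LPS. Tlr4 gave 0, 4.17 and 10.9 CPM (0, 41 and 7 UMIs), Ly96 gave 3.74, 9.66 and 1.56 CPM (4, 95 and 1 UMIs), and Cd14 (0, 24 and 4 UMIs) and Lbp (1, 16 and 3 UMIs) were not tested. Tnfaip3, which restrains NF-kB in lymphocytes as well, rose from 28.0 and 45.2 CPM to 331 CPM (3.30 ± 0.35, adjusted p = 0.0328) and passed in 11 of 11 alternatives. Of these, 1 put Gm42418-rich clusters back, which added no lymphoid-like cell and repeated the main fit. In the same sums 9 erythroid markers together stood at 411, 2691 and 21381 CPM and the 22 markers of the class at 15703, 17047 and 7467 CPM, and their part in the change was not tested. Tnfaip3 was the 1 gene called of 8 tested, where 0.915% of 9725 genes were called higher. The fitted changes of the other tested inhibitors were 1.70 ± 0.38 for Nfkbia (adjusted p = 0.146), 2.05 ± 0.44 for Zc3h12a (adjusted p = 0.136), 1.74 ± 0.48 for Socs3 (adjusted p = 0.212) and 3.12 ± 1.99 for Irak3 (adjusted p = 0.529), none of which passed. Myd88 gave 1.73 ± 0.54 (adjusted p = 0.266), Tlr4 2.24 ± 1.80 (adjusted p = 0.616) and Ly96 -1.99 ± 1.70 (adjusted p = 0.639). Without the Rag1 clusters Nfkbia was called too (2.32, adjusted p = 1.68e-04).

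Whether a gene responded differently in 2 classes was tested directly, as the difference of the LPS responses with library as a block. Lbp rose less in fibroblast-like than in endothelial-like cells, by 3.43 ± 0.90 on the log2 scale (difference -3.43, adjusted p = 0.0255), where 0.741% of 8498 genes differed. The call did not pass without the block (-3.35, adjusted p = 0.188) or with free RNA subtracted (-3.37, adjusted p = 0.166). Lbp started from a higher level in fibroblast-like controls (43.7 and 130 CPM against 4.36 and 3.09 CPM) and ended at 568 against 226 CPM over the class, but at 130 CPM (83.8 to 191), under endothelial-like cells, without the 32-cell cluster named above. The difference between phagocyte-like and endothelial-like cells was -3.73 ± 1.25 for Lbp (adjusted p = 0.179) and -1.80 ± 0.99 for Cd14 (adjusted p = 0.769). None of the 10 genes passed there, where 0.624% of 10260 genes did. For the 5 inhibitors the differences from endothelial-like cells lay between -1.25 and 1.16 in phagocyte-like and between 0.39 and 1.33 in fibroblast-like cells, and none passed.

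**Figure D3:**
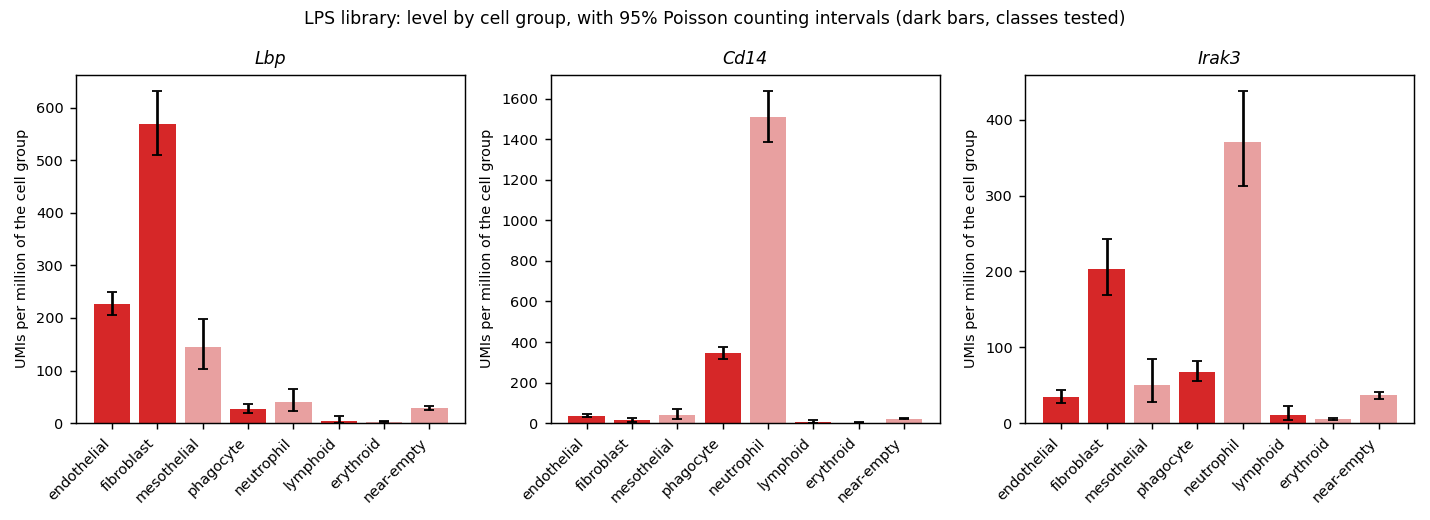
Level of Lbp, Cd14 and Irak3 in 8 groups of cells of the LPS library, in CPM of the group, with 95% Poisson counting intervals. Lbp is at 568 in fibroblast-like cells, where 318 of 343 UMIs come from 1 cluster of 32 cells, at 226 in endothelial-like and at 145 in mesothelial-like cells, and Cd14 is highest in neutrophil-like cells (1508).

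Within the LPS library the order of groups differed from gene to gene. Lbp was at 568 CPM (509 to 631) in fibroblast-like, 226 (205 to 249) in endothelial-like and 145 (104 to 197) in mesothelial-like cells, 3 levels whose counting intervals do not overlap. The first place rests on the 32-cell cluster, since the other 74 fibroblast-like cells stood at 130 CPM (83.8 to 191), under endothelial-like cells. Those 74 cells were also shallower and richer in Gm42418 than that cluster. Neutrophil-like (39.7 CPM, 22.2 to 65.6), near-empty (28.4) and phagocyte-like (27.2, 19.6 to 36.7) groups followed and were not apart beyond counting error. Lymphoid-like and erythroid-like cells closed the order at 4.69 and 2.52 CPM. Cd14 was at 1508 CPM (1386 to 1637) in the 35 neutrophil-like cells and 345.5 (316.8 to 376) in phagocyte-like cells, and under 40 CPM elsewhere. Irak3 was at 371 CPM (312 to 438) in neutrophil-like, 204 (169 to 243) in fibroblast-like and 67.3 (55.0 to 81.5) in phagocyte-like cells. Socs3 was at 246 CPM in phagocyte-like, 235.5 in mesothelial-like and 224 in fibroblast-like cells, whose intervals overlap, and at 65.96 in endothelial-like cells. Controls held 3 and 1 neutrophil-like cells and 18 and 19 mesothelial-like ones, too few for a test of these groups.

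**Figure D4:**
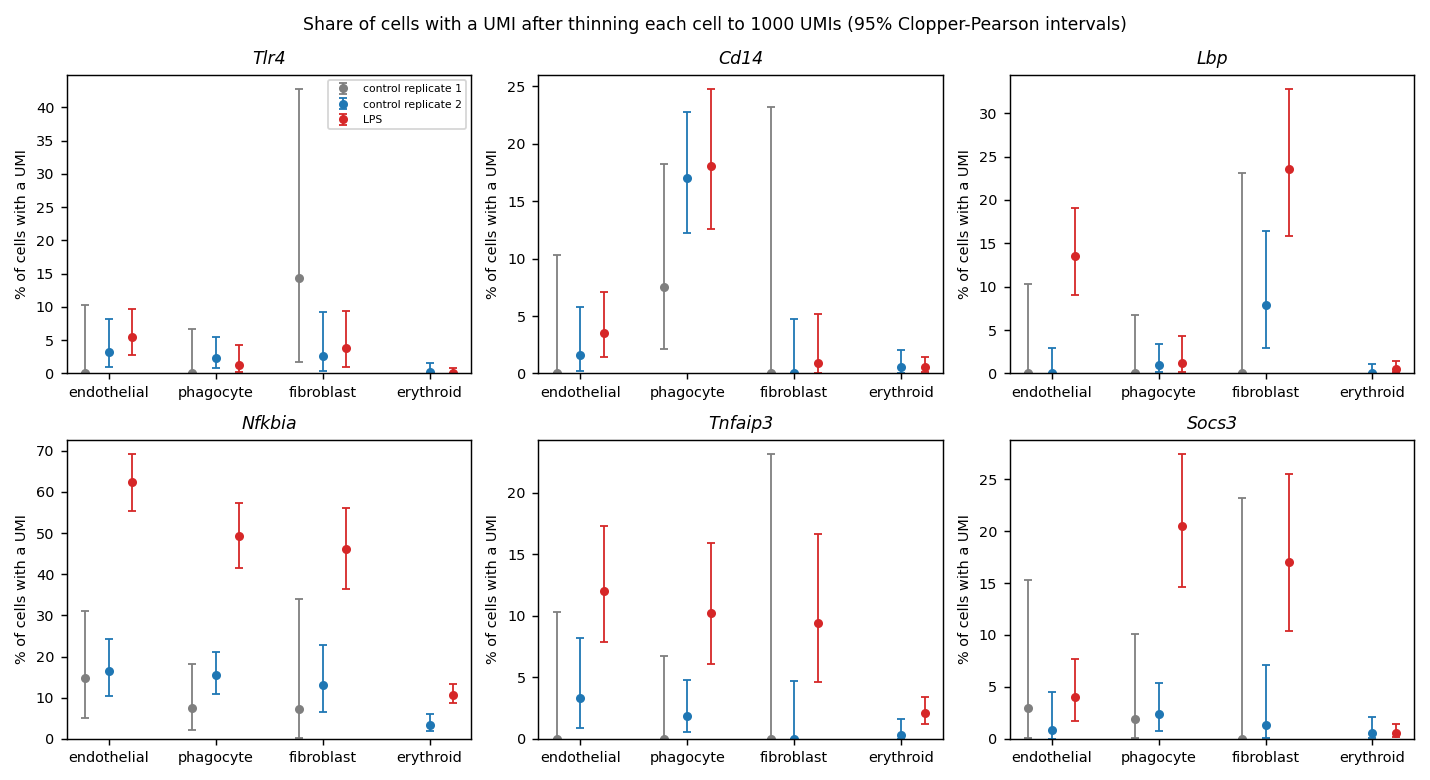
Share of cells with at least 1 UMI of 6 genes after each cell was thinned to 1000 UMIs, with Clopper-Pearson 95% intervals, in 3 classes and, as background, erythroid-like cells. The Nfkbia shares of the LPS library (46.2% to 62.5% in the 3 classes) lie above those of both controls, and the Tlr4 intervals of the libraries overlap in every class.

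Shares of cells were compared after every cell was thinned to 1000 UMIs, which left out 11 shallower endothelial-like cells of control replicate 1 and none of the other endothelial-like libraries. An Lbp UMI was then present in 0 of 34 (a floor of 3 cells is 8.82%), 0 of 122 (a floor of 2.46%) and 13.5% (9.09 to 19.0) of endothelial-like cells in control replicate 1, control replicate 2 and LPS. Before thinning, 1 of 45, 2 of 122 and 90 of 200 cells had one. In erythroid-like cells of the LPS library, which should lack the gene, the thinned share was 0.551% at a median of 8485 UMIs before thinning. Nfkbia was present in 14.7%, 16.4% and 62.5% of thinned endothelial-like cells and in 31.1%, 41.8% and 92.0% before thinning, against 3.46% and 10.7% of thinned erythroid-like cells in control replicate 2 and LPS. For Tlr4 the thinned endothelial-like shares were 0%, 3.28% (0.900 to 8.18) and 5.50% (2.78 to 9.63), intervals that overlap, and 15.6%, 9.02% and 29.0% before thinning. Cd14 was present in 7.55%, 16.98% and 18.1% of thinned phagocyte-like cells, with no gap between control replicate 2 and LPS.

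Other genes of the pathway were read from 5 lists, none of which counts the 10 genes. List genes with few control UMIs entered the test only if they were high with LPS. How many did so over the full lists was not counted, so the counts of risers below carry that limit. Among genes named below, Il6, Ptgs2 and Ikbke did so in endothelial-like cells. Ikbke, Il1rn, Il1r2, Bcl3 and Dusp5 did so in phagocyte-like cells. In fibroblast-like cells they were Casp4, Il1r1, Map3k8, Ikbkb, Usp18, Bcl3, Tnip1, Nfkbiz, Il6, Cxcl1 and Ptgs2. In lymphoid-like cells they were Usp18, Cxcl1 and Cxcl2. The rise of these genes in those classes is no independent support. Of 16 co-receptors and other LPS sensors, 3 of 6 tested rose in endothelial-like, 5 of 14 in phagocyte-like and 3 of 3 in fibroblast-like cells, and 0 fell in these classes, where 5.69%, 3.41% and 7.89% of all genes tested were called higher. Casp4, the sensor of LPS inside the cell, rose in all 3 (2.37 ± 0.49, 2.82 ± 0.57 and 3.59 ± 0.59). Il1r1, the IL-1 receptor gene, rose in endothelial-like (1.85 ± 0.49, and 1.15 without control replicate 2) and fibroblast-like cells (3.34 ± 0.56), and Tlr2, the receptor for bacterial lipoproteins, in endothelial-like cells (1.62 ± 0.50). Phagocyte-like cells had higher Aoah, whose enzyme deacylates LPS (3.17 ± 0.58), the integrin gene Itgam (3.07 ± 0.63) and the scavenger receptor gene Msr1 (2.71 ± 0.56). In fibroblast-like cells the TNF receptor gene Tnfrsf1a rose (1.80 ± 0.48). The list medians were 1.28, 0.61 and 3.34, against all-gene medians of -0.0038, -0.04 and 0.04. In lymphoid-like cells the median was 2.70 against -0.05, with 0 of 7 called.

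Among signal carriers below the receptor few genes passed. Of 37 adaptors, kinases and transcription factors, 4 of 31 tested rose in endothelial-like, 1 of 34 in phagocyte-like and 2 of 20 in fibroblast-like cells, with medians of 0.33, 0.24 and 0.37 and 0 lower. Against the 5.69%, 3.41% and 7.89% of all genes called higher, the counts in phagocyte-like and fibroblast-like cells are near the background and are no result about the list. Map3k8, a kinase of the ERK branch, rose in endothelial-like (3.61 ± 0.54) and fibroblast-like cells (3.38 ± 0.60). Ikbke, an IKK-related kinase, rose in endothelial-like (2.24 ± 0.56) and phagocyte-like cells (3.12 ± 0.66; 6.91 without control replicate 2, against a control with no UMI). Ripk1 rose in endothelial-like (1.51 ± 0.48) and Ikbkb in fibroblast-like cells (2.20 ± 0.69).

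A broad list held 54 genes taken as other negative regulators of Toll-like receptor and NF-kB signalling, among them Nfkb2, Malt1 and Nfkbiz. Of these, 13 of 35 tested rose in endothelial-like, 10 of 44 in phagocyte-like and 8 of 25 in fibroblast-like cells, and 0 fell (all genes called higher: 5.69%, 3.41% and 7.89%). Not every listed gene acts only as an inhibitor, so these are counts of listed genes. Nfkbiz is counted again among the Regnase-1 transcripts below, and Il6 among both those and the IL-6 family. Their medians were 1.19, 0.99 and 1.25. Tnip1, a partner of A20, rose in endothelial-like cells (3.02 ± 0.50) and was 9.70 times higher in fibroblast-like cells (3.14 to 48.6, counting interval). Nfkbiz, a nuclear IkB protein gene, rose by 2.70 ± 0.51 in endothelial-like cells and was 16.6 times higher (4.38 to 140) in fibroblast-like cells. Bcl3, another nuclear IkB protein gene, rose in endothelial-like cells (2.23 ± 0.56, and 3.49 without control replicate 2), was 19.1 times higher (6.33 to 94.4) in phagocyte-like cells and at least 6.85-fold higher in fibroblast-like cells, where the controls had no UMI and a floor of 3 over both was used. Atf3, a repressor induced by stress, rose in endothelial-like cells (2.36 ± 0.57, and 1.20 without control replicate 2). In phagocyte-like cells the IL-1 antagonists Il1rn (5.49 ± 0.67) and Il1r2 (43.7 times higher, 14.7 to 214) and the phosphatase gene Dusp5 (3.83 ± 0.77) rose. Usp18, which restrains interferon signalling, was at least 14.7-fold higher in fibroblast-like cells and rose in lymphoid-like cells (4.55 ± 0.42, adjusted p = 0.0266), as did Trim30a (2.97 ± 0.32, adjusted p = 0.0339).

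The pathway that SOCS3 restrains was read from its cytokines, receptors and kinases. Of 18 genes of the IL-6 family and STAT3 axis, 3 of 12 tested rose in endothelial-like, 2 of 15 in phagocyte-like and 4 of 11 in fibroblast-like cells, with 0 lower, beside 5.69%, 3.41% and 7.89% of all genes called higher. Il6 had no control UMI and was at least 22.3-fold higher in endothelial-like and at least 7.99-fold higher in fibroblast-like cells. Osmr, the oncostatin M receptor gene, rose in both (2.40 ± 0.48 and 2.26 ± 0.48), as did the STAT3 target Pim1 (2.87 ± 0.49 and 3.02 ± 0.54). Stat3 rose in fibroblast-like cells (1.75 ± 0.47) and Jak2 in phagocyte-like cells (1.84 ± 0.55).

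Transcripts that Regnase-1, the Zc3h12a product, is known to cut had the highest median of the 5 lists in each class. Of 14 such genes, 6 of 7 tested rose in endothelial-like, 6 of 8 in phagocyte-like and 5 of 5 in fibroblast-like cells, against 5.69%, 3.41% and 7.89% of all genes, 0 fell, and medians were 4.83 (4.48 with genes at 0 set to their bound), 3.29 and 5.26 (4.30 with bounds). In fibroblast-like cells Il6, Cxcl1, Ptgs2 and Nfkbiz had 0 to 2 UMIs in each control. They entered that test because they were high with LPS, so their rise there is no independent support. The same holds in endothelial-like cells for Il6 (0 UMIs in both controls) and Ptgs2 (3 and 5 UMIs). It holds in lymphoid-like cells for Cxcl2 (0 and 20 UMIs) and Cxcl1 (0 and 21 UMIs). Ptgs2, the inducible prostaglandin synthase gene, rose in endothelial-like cells (5.47 ± 0.60) and was 34.8 times higher in fibroblast-like cells (6.02 to 1398). The neutrophil chemokine genes Cxcl1 and Cxcl2 rose in endothelial-like cells by 4.83 ± 0.53 and 5.27 ± 0.56. Cxcl1 was 105 times higher in fibroblast-like cells (18.6 to 4171), and Cxcl2 (2.73 ± 0.65) and Ier3 (3.14 ± 0.58) rose in phagocyte-like cells, by 5.50 and 5.04 without control replicate 2. Cxcl2 (6.75 ± 0.63, adjusted p = 0.0266) and Cxcl1 (5.65 ± 0.71, adjusted p = 0.0438) also rose in lymphoid-like cells, where 0 of 11 genes of the STAT3 axis, 0 of 7 sensors and 0 of 34 signal carriers passed; at an unadjusted p under 0.05, 758 of all genes tested there were higher.

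**Figure D5:**
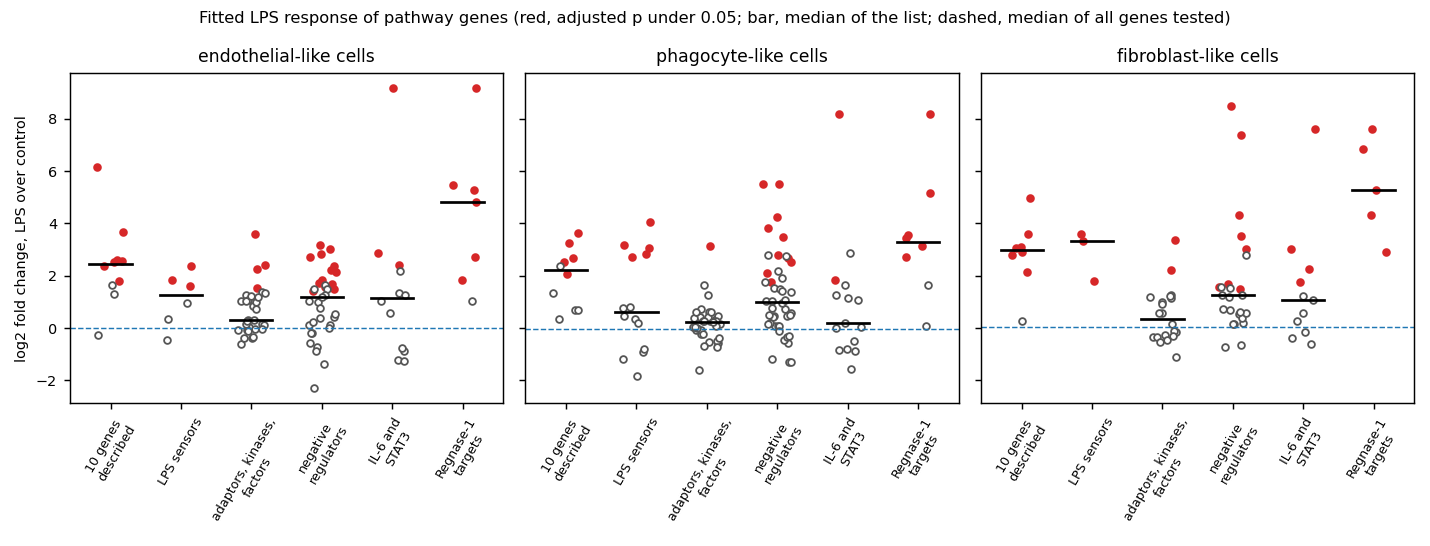
Fitted log2 fold change of every tested gene of the 10 described and of 5 pathway lists in 3 classes, with the list median as a bar and the median of all genes tested as a dashed line. Red points passed at an adjusted p under 0.05, and the signal carriers (adaptors, kinases, factors) sit nearest the dashed line in endothelial-like and fibroblast-like cells.

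Genes whose levels followed the 10 most closely were sought over the 12 class and library sums among 6814 genes, with Pearson's r of log2(CPM + 10) as a description. The sums share libraries and classes, so r carries no test. Lbp was most like H6pd, Angptl4 and the acute-phase gene Serpina3n (r = 0.955, 0.943 and 0.932). Socs3 was most like the acute-phase genes Saa3 and Hp (0.958 and 0.939), and Hp was also second for Myd88 (0.916) after Socs3 itself (0.918). Cd14 was most like Pf4, Slc15a3 and Lyn (0.978, 0.975 and 0.961). Zc3h12a was most like Birc3 and Nfkbia (0.947 and 0.927), Nfkbia most like Herc6 (0.975) and Tnfaip3 most like Rpl9-ps6 (0.9499). For Irak3, Tlr4 and Ly96 the nearest genes were Ampd3 (0.914), Eea1 (0.913) and Vps26a (0.905).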

How the data were processed

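Each library was deposited as a matrix of raw UMI counts. The submitters' processing notes name Cell Ranger 3.1, R 4.2.1, Seurat 4.2.0 and mm10. Annotation release and barcode selection: not given in the sources used here. The 10 genes and the pathway lists were chosen with earlier results of these data known.

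The filter asked for 500 or more UMIs, 300 or more genes and no more than 15% mitochondrial UMIs, which left 431, 2697 and 5156 barcodes in control replicate 1, control replicate 2 and LPS. The doublet caller Scrublet marked 2, 4 and 0 of these, under what a working caller marks; they were removed (429, 2693 and 5156 remained), and other doublets were left in. Clustering (scanpy 1.11.5, leidenalg 0.10.2, resolution 1.0 in 2 steps, no integration) left out Gm42418, haemoglobin and mitochondrial genes. Sub-clusters were named from 18 marker lists, by a rule that was the fourth tried, chosen after seeing the clusters. Those with at least 40% Gm42418 were kept out, which removed 222 phagocyte-like and 109 fibroblast-like LPS barcodes.

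UMIs were summed per class and library, and classes with at least 20 cells in each were tested with edgeR 4.0.16's quasi-likelihood test (TMM, filterByExpr, Benjamini-Hochberg at 0.05). With 2 controls against 1, the spread comes from the controls alone and is taken to hold for LPS. Differences between classes were fitted with library as a block. All 10 genes are named, and from each pathway list up to 4 genes each way with the largest change among those called, whose mean was 20 CPM or more and whose LPS value lay outside both controls. The test was checked on simulated counts. Sequences come from RefSeq (GRCm38.p6) and positions from GENCODE M21. Alternatives are in the closing section, and 2 of them, on Gm42418, were chosen after seeing the data.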

Additional observations from a re-analysis of the deposited data

Results flagged for a closer look

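Lbp is the result to look at again, because the difference of its LPS responses between cell classes passed a direct test in the main fit. The response in fibroblast-like cells minus that in endothelial-like cells was -3.43 ± 0.90 on the log2 scale (edgeR quasi-likelihood test, adjusted p = 0.0255). Lbp rose in each class on its own, from 1 and 2 UMIs to 412 in endothelial-like cells and from 3 and 36 UMIs to 343 in fibroblast-like cells, where 318 of the 343 came from 1 cluster of 32 cells. Over the 4 alternatives of this difference the log2 value lay between -3.41 and -3.35, and the adjusted p between 0.0188 and 0.188. The difference did not pass without the block or with free RNA subtracted. Its size rests on the few control UMIs of endothelial-like cells, where the ratio to the pooled controls had a counting interval of 22.5 to 322. In that class Lbp reached the count minimum through the LPS library only, so its rise there is no independent support.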

How the results depend on the processing

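The counts of genes called moved more than the log2 differences did. Genes higher and lower with LPS numbered 490 and 451 in endothelial-like, 304 and 221 in phagocyte-like, 429 and 278 in fibroblast-like and 89 and 0 in lymphoid-like cells, of which 7, 5, 7 and 1 were genes described here. Without the low-count filter the endothelial-like counts were 133 and 56 with 4 of these genes, the fibroblast-like ones 0, 0 and 0 (764 higher and 452 lower at an unadjusted p under 0.05), and the lymphoid-like ones 513 and 371 with 3. With free RNA subtracted, phagocyte-like cells gave 0, 0 and 0 (306 higher and 219 lower at an unadjusted p under 0.05), fibroblast-like cells 197 and 98 with 4, and lymphoid-like cells 223 and 42. With DESeq2 the counts were 137 and 142 with 2 in endothelial-like, 74 and 36 with 2 in phagocyte-like and 75 and 58 with 3 in fibroblast-like cells, and 129 and 25 in lymphoid-like cells, with 2 of these genes among the higher. With 1 fit over all classes they were 182 and 78, 184 and 51, 140 and 36, and 259 and 28 in the same order of classes. Without Gm42418, haemoglobin and mitochondrial genes they were 162 and 85 in endothelial-like cells and 92 and 25 with 2 in phagocyte-like cells. A mitochondrial limit of 10% gave 319 and 236 in endothelial-like and 200 and 64 in lymphoid-like cells. Cells gated by marker counts gave 290 and 193 in endothelial-like cells and 126 lower in phagocyte-like cells, and a minimum of 1000 UMIs gave 110 lower in phagocyte-like cells. Without thymocyte-like clusters lymphoid-like cells gave 168 and 72 with 2. The cause of these shifts was not tested. Tlr4 in fibroblast-like cells, not called, had the 1 reversed sign among the alternatives that kept all libraries, -0.0598 with free RNA subtracted.

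The mitochondrial limit of 10% and the minimum of 1000 UMIs were not run in fibroblast-like cells, where a control kept 19 and 14 cells. Leaving out a control gave log2 differences with no test. None of the genes described that were called changed sign without a control; of those not called, Ly96 in endothelial-like and Tlr4 in fibroblast-like cells did. No paired analysis was possible for the class tests because the labels number no replicates; in the difference between classes, the replicate block was dropped as an alternative, which gave Lbp -3.35 with an adjusted p of 0.188. Thinning to 500 UMIs gave an Lbp share of 5.00% in LPS endothelial-like cells. With 24 to 45 cells in the smallest sums, small changes of low genes were not detectable at this depth.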
